A study of Mus musculus with 9 samples.

Results

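The genes described here are 9 genes of the Hedgehog signalling pathway, taken by name from the tables of transcript levels in embryonic mouse retina. They are the ligand gene Shh, the receptor genes Ptch1 and Smo, the co-receptor genes Boc and Gas1, the transcription factor genes Gli1, Gli2 and Gli3, and Hhip, which encodes a membrane protein that binds and sequesters the ligand. Values were read for 6 of the 9 genes, in 12 transcripts, out of 11848 genes found in both tables. Shh, Gli1 and Hhip were not analysed here, and nothing is said about their levels. The set described below is therefore the receiving side of the pathway, and a supply of ligand from ganglion cells cannot be judged from it.

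In Hedgehog signalling the secreted ligand binds Ptch1, which otherwise holds Smo inactive. Active Smo gathers in the primary cilium and turns the Gli proteins from repressors into activators, with Gli2 acting mainly as the activator and Gli3 mainly as the repressor. Ptch1, Gli1 and Hhip are also targets of the pathway, so their transcripts are widely used as readouts of signalling. In the developing retina, newborn ganglion cells release Shh, and the neighbouring progenitors respond to it. The question put to these genes is whether the pathway's ligand and targets follow the neurons when neurons are lost, and of the classic feedback targets only Ptch1 could be examined.

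Total RNA was sequenced from the retinas of E12.5 embryos of the mouse strain CD-1, with 9 samples in 3 groups of 3, each made from pairs of GFP-positive optic cups. Heterozygotes (Neurog2GFP/+) had one intact allele of Neurog2, a proneural transcription factor gene, and one allele with GFP. Mutants (Neurog2GFP/GFP) had GFP at both alleles. In the knock-in embryos one Neurog2 allele held GFP and the other an inserted proneural coding sequence. Every group thus has a GFP allele and none is wild type, and no cell sort is stated for the dissociated optic cups.

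The deposited tables hold one value per transcript and group, in RPKM (read density per transcript length and sequencing depth), so no value per sample and no spread between samples can be printed, and the depth per sample is unknown. A difference counts as a change here where the q-value of the authors' Cuffdiff test, adjusted over all transcripts of a table, is 0.05 or less. One table sets mutant against heterozygote and the other knock-in against mutant. The mutant samples are thus in both tables, normalized separately, with the values of the second table at 0.981 times those of the first in the median gene. Separate litters or cultures are not named in the labels, so the spread between these samples may be technical. The p-values are those of the authors' software and need not measure that spread alone.

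The targeted gene was checked first. Neurog2 stood at 30.2 RPKM in heterozygotes and 36.2 RPKM in the mutant group (q = 0.993 in the authors' deposited table), and at 35.5 and 112 RPKM in the mutant and knock-in groups of the second table (q = 0.0104). The tables do not separate the part of the transcript that GFP replaced, so the gene does not check the labels. The groups without an intact allele are called here by their label (mutant-labelled, knock-in-labelled). The Y-linked gene Eif2s3y summed to 21.9 RPKM in heterozygotes, was listed at 0 in mutant-labelled retinas and summed to 28.6 RPKM in knock-in-labelled ones, so the sex of the embryos differed along with the genotype. A number in the sample titles is shared by heterozygotes and mutants and differs in the knock-in embryos, so what it marks cannot be told apart from the knock-in label.

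The tissue matched its label by its markers. All 12 retinal progenitor markers checked were listed in both tables, led by Sfrp2, and 16 of 20 markers of ganglion cells were listed in the first. The ganglion cell markers set the measure of neuron loss beside which the Hedgehog genes are read. All 16 were lower in mutant-labelled retinas, 10 of them past the test, where 1.09% of all genes were called lower, with a median log2 ratio of -1.12. In the knock-in-labelled group all 15 that were listed were higher than in mutant-labelled retinas, with a median log2 ratio of 0.41. Of the 15, 2 were past the test, where 1.03% of all genes were called higher. In bulk RNA, fewer ganglion cells and less RNA in each of them cannot be told apart.

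The receiving side of the pathway was well represented in these retinas. In the heterozygote, levels per length summed over transcripts were 44.6 RPKM for Smo, 34.9 RPKM for Gli3, 33.4 RPKM for Gli2, 18.2 RPKM for Ptch1, 8.23 RPKM for Gas1 and 2.56 RPKM for Boc. Smo was higher than 81.0% of all listed genes and Boc higher than 13.9%. The transducer Smo was thus the most abundant member and the co-receptor Boc the least, and Gli2 and Gli3 stood side by side. Whether such neighbours in the order differ beyond the spread between samples cannot be judged from pooled values. The order was the same in mutant-labelled retinas. In the knock-in-labelled group Gas1, at 9.21 RPKM, came above Ptch1, at 8.24 RPKM.

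**Figure D1:**
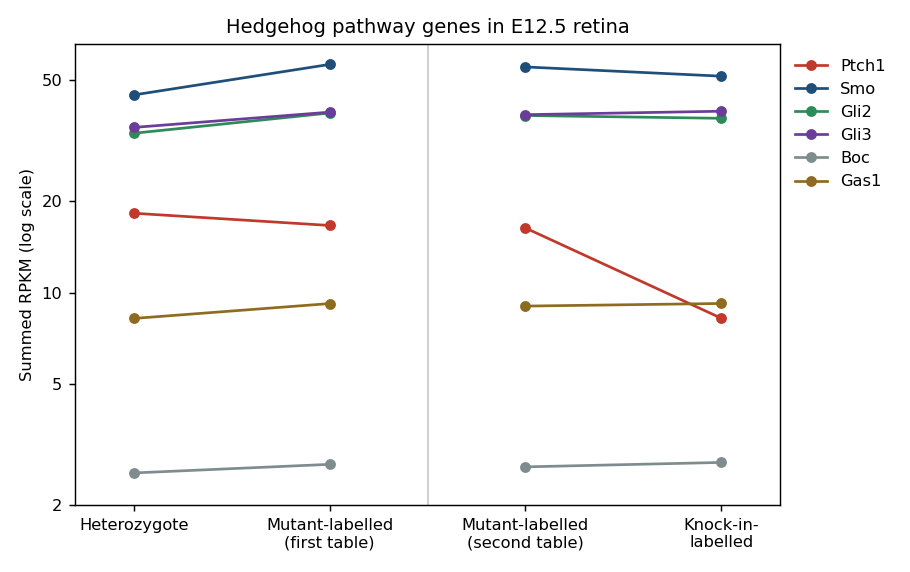
Summed RPKM (log axis) of the 6 Hedgehog genes with values, by group; each point is the authors' pooled value for a group, with no error bar, and lines join the groups of one table. On the right, Ptch1 goes from 16.3 to 8.24 RPKM while the other 5 lines are nearly level; on the left Smo goes from 44.6 to 56.2 RPKM.

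No Hedgehog gene passed the test with the second GFP allele. Of the 6 genes, 0 were called in mutant-labelled against heterozygote retinas by the authors' Cuffdiff test, where 1.34% of all genes were called. At an unadjusted p of 0.05 or less 1 gene of the 6 was taken, Smo, where 10.9% of all genes were. The genes' median log2 ratio was 0.16, beside 0.03 over all genes, and 1 of the 6 had a lower summed level, beside 45.4% of all genes. Beside the median of -1.12 of the ganglion cell markers, the lowest log2 ratio of a Hedgehog gene was -0.13, that of Ptch1.

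Ptch1, the receptor and feedback target (mm10 chromosome 13, 63508328 to 63573598), is the gene on which the question turns. Its summed level was 18.2 RPKM in heterozygotes and 16.6 RPKM in mutant-labelled retinas, a log2 ratio of -0.13. The most abundant of its 3 transcripts, called A here, was at 8.52 and 8.35 RPKM (p = 0.880 in the authors' deposited table). If the p-value is read as that of a normal test, it implies a 95% interval of -0.41 to 0.35 for the log2 ratio of transcript A. Transcript B was at 8.08 and 6.91 RPKM, and transcript C at 1.63 and 1.36 RPKM (p = 0.878 and p = 0.434 in the authors' deposited table). All 3 transcripts had slightly lower values in mutant-labelled retinas, each by less than the implied error. The implied interval of transcript B, from -3.11 to 2.66, takes in the median of the ganglion cell markers. The intervals of transcript A and of transcript C, the latter from -0.90 to 0.39, leave that median out. Which cells transcribe Ptch1 cannot be read from bulk RNA, so whether it follows the neurons cannot be judged from this.

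Smo, the membrane protein that carries the signal inwards (chromosome 6, 29735503 to 29761365), has a single listed transcript. It was at 44.6 RPKM in heterozygotes and 56.2 RPKM in mutant-labelled retinas. This log2 ratio of 0.33 had p = 0.022 and q = 0.701 in the authors' deposited table, and did not pass. The interval implied by that unadjusted p is 0.05 to 0.62. The 12 progenitor markers had a median log2 ratio of 0.29, close to that of Smo, with 11 of 12 higher and none called; their part in the Smo difference was not tested.

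The co-receptors help the ligand bind Ptch1. Gas1 (chromosome 13, 60174405 to 60177365), a membrane-anchored protein, was at 8.23 RPKM in heterozygotes and 9.21 RPKM in mutant-labelled retinas, a log2 ratio of 0.16 (q = 0.993 in the authors' deposited table). Boc (chromosome 16, 44485045 to 44558897), an immunoglobulin-family receptor also known from axon guidance of ganglion cells, was at 2.56 and 2.73 RPKM, a log2 ratio of 0.09 (q = 0.995). The intervals implied by their unadjusted p-values were -0.18 to 0.50 for Gas1 and -0.29 to 0.48 for Boc. Neither co-receptor gene differed beyond its error. Both intervals lie above the median of the ganglion cell markers, but which cells transcribe these genes cannot be read from bulk RNA. A gene also transcribed in other cells need not fall that far, so whether the co-receptors follow the neurons cannot be judged from this.

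The Gli factors are the pathway's transcriptional arm. Gli3 (chromosome 13, 15440302 to 15730026) has 2 listed transcripts, at 20.5 and 22.6 RPKM and at 14.4 and 16.6 RPKM in heterozygote and mutant-labelled groups. Its summed level was 34.9 and 39.2 RPKM, a log2 ratio of 0.17. Gli2 (chromosome 1, 118834132 to 119053619) has 4 listed transcripts, and its summed level was 33.4 and 38.9 RPKM, a log2 ratio of 0.22. The Gli2 transcript that differed most, called C, was at 3.36 and 5.50 RPKM (p = 0.114, q = 0.993 in the authors' deposited table). Gli2 and Gli3 thus differed to a similar extent and neither passed the test.

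**Figure D2:**
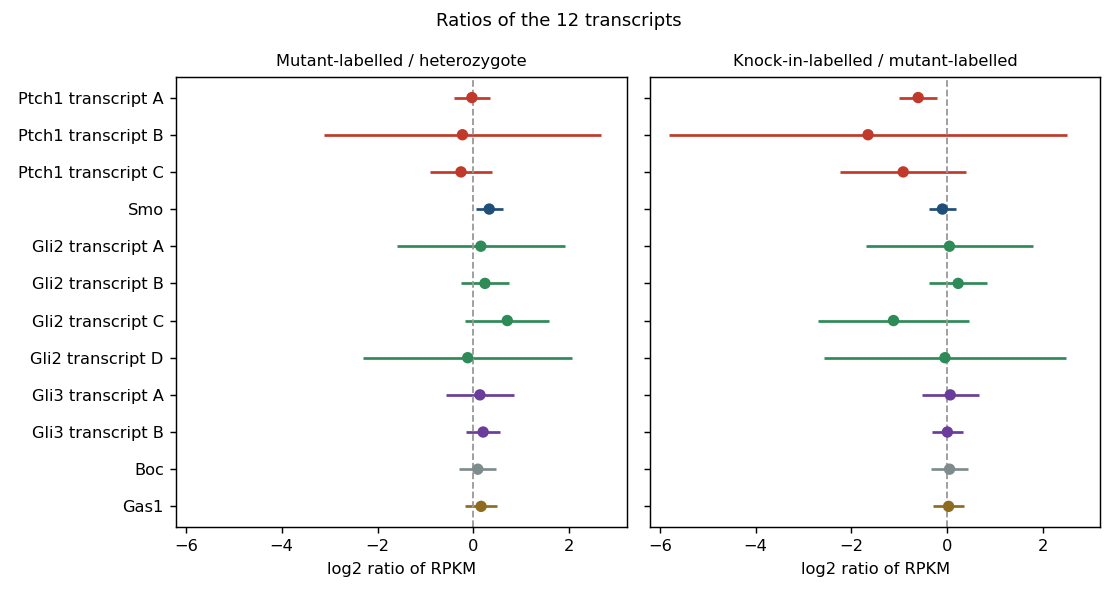
Log2 ratio of RPKM (x axis) for each of the 12 transcripts of the 6 genes, in both comparisons; lines are 95% intervals implied by the authors' unadjusted p-values. Only the intervals of Smo on the left and Ptch1 transcript A on the right leave out 0, and the widest belong to Ptch1 transcript B and the Gli2 transcripts A and D.

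In knock-in-labelled against mutant-labelled retinas Ptch1 had the lowest ratio of the Hedgehog genes. The test called 0 of the 6 genes, where 1.67% of all genes were called. At an unadjusted p of 0.05 or less 1 of the 6 was taken, Ptch1, where 14.6% of all genes were. The median log2 ratio was 0.00 for the members and 0.00 over all genes, and 3 of the 6 had a lower summed level, beside 50.3% of all genes. Leaving Ptch1 aside, the members' log2 ratios ran from -0.10 for Smo to 0.05 for Boc.

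The summed level of Ptch1 was 16.3 RPKM in the mutant-labelled and 8.24 RPKM in knock-in-labelled retinas, a log2 ratio of -0.98 or 1.98-fold lower. Transcript A was at 8.20 and 5.38 RPKM, a log2 ratio of -0.61, with p = 0.0031 and q = 0.181 in the authors' deposited table. The interval implied by this unadjusted p is -1.01 to -0.20. Transcript B was at 6.78 and 2.15 RPKM, a log2 ratio of -1.65, and with p = 0.434 in the authors' deposited table its error is wide. Transcript C was at 1.34 and 0.707 RPKM (p = 0.170 in the authors' deposited table). All 3 transcripts were lower, transcript A alone with an unadjusted p under the threshold, and most of the summed difference beyond that of A comes from transcript B, whose implied interval runs from -5.80 to 2.49. RPKM of overlapping transcripts rests on how the authors' software divided shared reads between them.

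**Figure D3:**
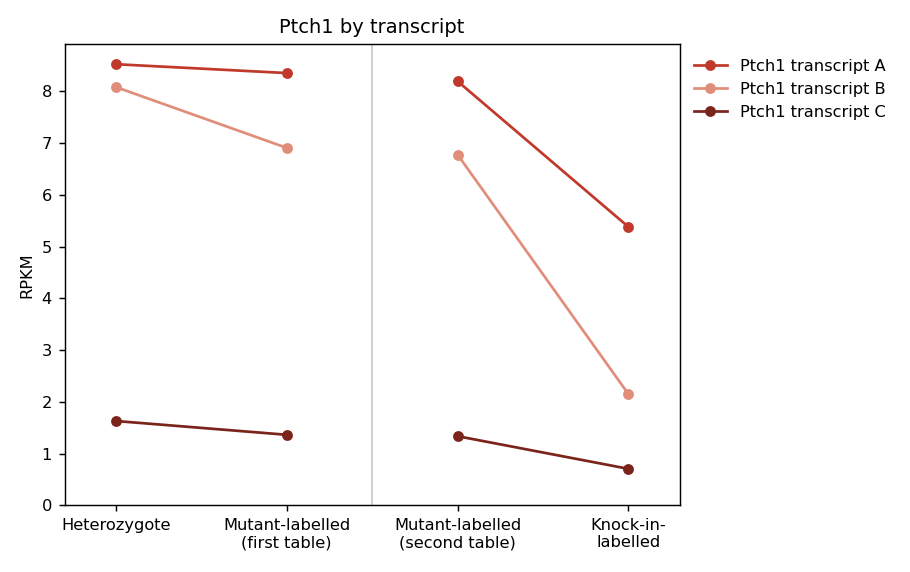
RPKM of the 3 listed Ptch1 transcripts by group; each point is the authors' pooled value and lines join the groups of one table. Transcripts A and B are close in heterozygotes, at 8.52 and 8.08 RPKM, and apart in knock-in-labelled retinas, at 5.38 and 2.15 RPKM.

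The other members gave close values in these groups. Smo was at 55.2 and 51.4 RPKM (p = 0.471 in the authors' deposited table) and Gas1 at 9.03 and 9.21 RPKM (p = 0.863). Boc was at 2.68 and 2.77 RPKM (p = 0.804 in the authors' deposited table). Gli3 had summed levels of 38.4 and 39.5 RPKM. Gli2 had summed levels of 38.2 and 37.4 RPKM, and its transcript C, at 5.39 and 2.48 RPKM (p = 0.161 in the authors' deposited table), differed most. The implied intervals of the log2 ratio were -0.37 to 0.17 for Smo, -0.29 to 0.35 for Gas1 and -0.33 to 0.43 for Boc.

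Markers of other tissues also differed between these groups, among genes listed in both tables. The summed level of 4 pigment epithelium markers was 17.1 RPKM in the mutant-labelled and 77.1 RPKM in knock-in-labelled retinas, with all 4 of these called higher, from a list of 8, where 1.03% of all genes were called higher. It was 49.6 and 115 RPKM for 5 of 8 lens markers (2 called higher) and 33.6 and 124 RPKM for 4 of 7 blood markers (2 called higher). For 3 of 10 periocular mesenchyme markers it was 17.8 and 29.2 RPKM (1 called higher). For 2 of 6 endothelial markers it was 29.5 and 24.0 RPKM and for 3 of 8 markers of optic stalk and ventral forebrain 54.7 and 61.1 RPKM, with none called. Of the 12 progenitor markers 1 was called lower, Hes5, and their median log2 ratio was -0.02. None of these marker genes was at 0 in any group. In the first comparison none of these genes was called, and the sums for pigment epithelium, lens, blood and mesenchyme were 16.0 and 17.4, 69.2 and 50.6, 29.4 and 33.9, and 19.5 and 18.1 RPKM in heterozygote and mutant-labelled groups. Their part in the Ptch1 difference was not tested, nor was that of sex.

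Knock-in-labelled and heterozygote values come from separate tables and were not tested against each other. Side by side, Ptch1 was at 8.24 RPKM in knock-in-labelled retinas and 18.2 RPKM in heterozygotes. Smo was at 51.4 and 44.6 RPKM, Gli3 at 39.5 and 34.9 RPKM, and Gli2 at 37.4 and 33.4 RPKM. Gas1 was at 9.21 and 8.23 RPKM and Boc at 2.77 and 2.56 RPKM. Ptch1 alone had its lowest value in knock-in-labelled retinas, the other 5 in heterozygotes. The ganglion cell markers, for 15 genes in both tables, summed to 1234 RPKM in heterozygotes, 651 and 638 RPKM in mutant-labelled retinas and 883 RPKM in knock-in-labelled retinas. Because both comparisons share the mutant samples, their ratios are not independent.

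The genes with the pattern most like Ptch1 were sought among 11253 genes with at least 1 RPKM in every group, by the distance between their pairs of log2 ratios over the 3 groups. The nearest was Mapk12, a p38 family kinase, at a distance of 0.01, with 12.51 RPKM in heterozygotes, 11.4 and 11.2 RPKM in the mutant-labelled and 5.69 RPKM in knock-in-labelled retinas. Its single transcript passed the test in the second comparison (q = 0.0104 in the authors' deposited table). Others near it were Fam129c, Wdr17 and Izumo4, at distances of 0.05 to 0.08. With 3 group values such likeness is a description of levels.

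The rest of the pathway was read from 5 lists holding 87 further genes, of which 71 were listed. In mutant-labelled against heterozygote retinas 1 of the 71 was called, Olig2, and 7 had an unadjusted p of 0.05 or less. In knock-in-labelled against mutant-labelled retinas 0 were called by the authors' Cuffdiff test and 10 had such a p. Their median log2 ratios were 0.08 and -0.07. These shares of calls are near or under those of all genes given above.

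Genes that make and release the ligand came first. Of 7 on the list, 4 were listed and none was called in either comparison. Hhat, which attaches palmitate to the ligand, was at 5.06 and 5.74 RPKM in heterozygote and mutant-labelled groups. Disp1, which releases the ligand from the producing cell, was at 4.55 and 5.33 RPKM, and then at 5.22 and 1.81 RPKM in the mutant-labelled and knock-in-labelled groups, where its most abundant transcript had p = 0.0321 (q = 0.599 in the authors' deposited table). Scube3, a secreted carrier of the ligand and the most abundant of these genes, was at 20.3 and 25.7 RPKM in the first comparison (smallest p = 0.0249 and q = 0.741 in the authors' deposited table). Scube1, of the same family, was at 3.49 and 1.97 RPKM there (smallest p = 0.0798 in the authors' deposited table). Its 2 transcripts differed in opposite directions, with log2 ratios of -1.66 and 2.54. In the second comparison Scube1 has 1 listed transcript, at 1.03 and 2.77 RPKM (p = 0.106 in the authors' deposited table). Of the 4 listed genes, 3 had a lower summed level in that comparison and 1, Scube1, a higher one.

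Among receptors and co-receptors beside the members, 5 of 6 were listed, all 5 with higher levels in mutant-labelled retinas and none called in either comparison. Cdon, the co-receptor related to Boc, was the most abundant, at 62.9 RPKM in heterozygotes and 80.3 RPKM in mutant-labelled retinas (smallest p = 0.0435, q = 0.933 in the authors' deposited table). It was at 79.0 and 62.3 RPKM in the mutant-labelled and knock-in-labelled groups (smallest p = 0.098 in the authors' deposited table). Lrp2, a large endocytic receptor that binds the ligand, was at 3.16 and 4.10 RPKM and then at 4.03 and 3.22 RPKM (p = 0.0166 and p = 0.0334 in the authors' deposited table). The glypican genes Gpc3 and Gpc4 were at 9.44 and 9.60 RPKM and at 19.0 and 21.7 RPKM in heterozygote and mutant-labelled groups. Of the co-receptor genes, Cdon was thus far above Gas1 and Boc per length in every group.

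All 23 signal transducers and inhibitors were listed and none was called in either comparison. Their median log2 ratios were 0.08 and -0.01. The smallest p-values belonged to Cul3, a ubiquitin ligase scaffold and the most abundant of these genes in heterozygotes, and to Gsk3b, a kinase that phosphorylates Gli proteins. Cul3 was at 193 and 158 RPKM in the first comparison and at 155 and 180 RPKM in the second (smallest p = 0.0113, q = 0.375 in the authors' deposited table). Gsk3b was at 154 and 149 RPKM, and then at 146 and 163 RPKM (smallest p = 0.0128 and q = 0.389 in the authors' deposited table). The kinase gene Csnk1a1 was at 97.3 and 110 RPKM in the second. Sufu, the main cytoplasmic inhibitor of the Gli proteins, was named after its values were seen. Its summed level was 8.92 and 10.4 RPKM and then 10.2 and 6.94 RPKM (smallest p = 0.369 in the second comparison of the authors' deposited tables). That p belongs to a single transcript, at 4.32 and 0.904 RPKM, while its other transcripts were close there. In the first comparison the transcripts of Sufu differed in both directions.

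The signal passes through the primary cilium, and all 28 cilium genes were listed with none called. Mutant-labelled against heterozygote retinas gave these genes a median log2 ratio of 0.07, beside 0.03 over all genes. Of the 28, 0 had an unadjusted p of 0.05 or less, where 10.9% of all genes did. For knock-in-labelled against mutant-labelled retinas the median was -0.10, beside -0.002 over all genes. Here 2 of the 28 had such a p, a smaller share than the 14.6% of all genes. Those 2 were B9d1, of the ciliary transition zone, and Ift57, of the transport machinery. In the mutant-labelled and knock-in-labelled groups B9d1 summed to 61.2 and 66.2 RPKM and Ift57 to 64.7 and 49.1 RPKM. The p of B9d1 belongs to its most abundant transcript, at 32.4 and 45.4 RPKM, and its other transcripts differed in both directions. Ift46, the most abundant in heterozygotes, was at 78.7 and 73.2 RPKM in the first comparison, Ift52 at 19.0 and 23.1 RPKM, and Bbs1 at 7.32 and 8.82 RPKM.

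Of 24 genes known as targets of the pathway in some tissue, 11 were listed. In the first comparison 1 of the 11 was called, where 1.34% of all genes were, and in the second none. Olig2, a basic helix-loop-helix factor that Hedgehog signalling induces in the ventral spinal cord, fell from 4.56 to 2.52 RPKM in mutant-labelled retinas, a log2 ratio of -0.85 (q = 0.0424 in the authors' deposited table). It was at 2.48 and 2.84 RPKM in the second comparison (q = 0.831). Whether Olig2 responds to Hedgehog in these retinas was not tested. Ccnd1, the cyclin that drives progenitor division and the most abundant target, was at 388 and 487 RPKM and then at 478 and 510 RPKM, with no call. The list's median log2 ratios were 0.07 and 0.09.

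Some targets outside the naming rule were picked after their values were seen. Vax2, a ventral eye factor, was at 27.6 and 42.6 RPKM in heterozygote and mutant-labelled groups (p = 0.0024, q = 0.204 in the authors' deposited table). Bcl2, which protects cells from death, was at 16.9 and 22.0 RPKM there (smallest p = 0.00885 in the authors' deposited table). In the second comparison Hes1, a repressor of neurogenesis that responds to Hedgehog in the retina, was at 48.9 and 38.7 RPKM, and the kinase gene Cdk6 at 11.8 and 16.3 RPKM (p = 0.029 and p = 0.0037 in the authors' deposited table). Mycn, a proliferation factor, was at 42.5 and 45.0 RPKM and then at 44.1 and 42.3 RPKM. The listed targets thus had ratios on both sides of zero in both comparisons. The summed level of Ccnd2 was 21.7 and 11.97 RPKM and then 11.7 and 73.1 RPKM. The lower sum in mutant-labelled retinas comes from 1 transcript, at 12.9 RPKM in heterozygotes and listed at 0 in mutant-labelled retinas. It did not pass (p = 0.178 in the authors' deposited table), and the other listed transcripts were all higher in mutant-labelled retinas. Most of the knock-in-labelled level is 1 transcript at 62.7 RPKM, listed at 0 among mutants, that did not pass (p = 0.209 in the authors' deposited table).

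**Figure D4:**
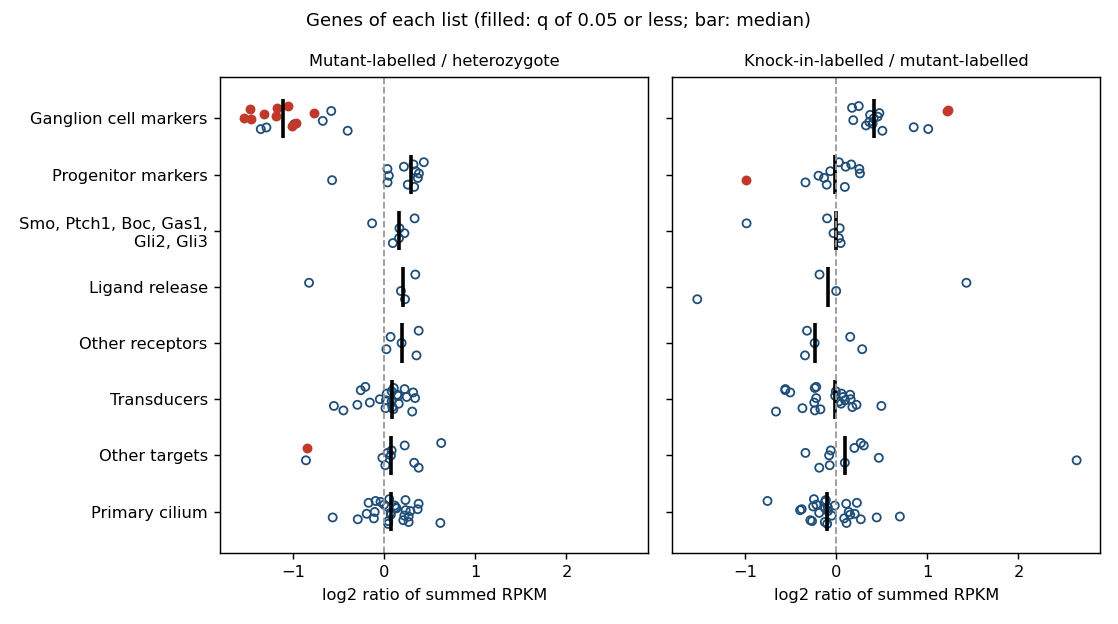
Log2 ratio of summed RPKM (x axis) for each gene of 8 lists in both comparisons; filled points passed the authors' test at q of 0.05 or less, open points did not, and bars are medians. Ganglion cell markers lie at a median of -1.12 on the left and 0.41 on the right, while the medians of the Hedgehog lists lie between -0.24 and 0.21.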

How the data were processed

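The submitters' processing notes name Bowtie2, Cufflinks and Cuffdiff and the build mm10. Tool versions: not given in the sources used here. Per the file headers, the authors deposited RPKM values per assembled transcript and group, with a p-value and a q-value. The lowest value in the higher group of a row was 0.906 and 1.04 RPKM, so weaker transcripts are not seen. The deposited q-values matched a Benjamini-Hochberg adjustment over all 27311 and 26586 transcripts.

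From these, log2 ratios were computed per transcript and per gene (sum over transcripts, no pseudocount) with Python 3.11.15 and pandas 2.3.3, and the scripts were tested on simulated data. A gene was called where any transcript had q of 0.05 or less. Transcripts were joined across tables within a gene by the order of their mutant values. Implied intervals divide a log2 ratio by the normal quantile of its p-value and are approximate. Transcripts without a symbol (173 and 172) were left out of gene counts. Loci are the authors', from base 1.

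The members, the 5 pathway lists and the 8 marker lists were chosen with earlier results of these data known. Named are all members with values, called genes of each list or else up to 4 with the smallest p, its most abundant gene, and the 5 genes nearest to Ptch1. The coding sequence inserted in the knock-in and some genes that this rule takes are not reported here.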

Additional observations from a re-analysis of the deposited data

How the results depend on the processing

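The tables hold pooled values, so no result could be recomputed without one of the samples. No paired analysis was possible because the columns carry 1 pooled value per group and no replicate. Of 14 alternative counts of members called or lower, 11 equalled the reported one. An unadjusted p of 0.05 or less took 1 member in place of 0 in each comparison, and with the most abundant transcript only 2 members in place of 3 were lower in knock-in-labelled against mutant-labelled retinas. Of 48 alternative log2 ratios within a comparison, 46 kept their sign and stayed within the implied error of the most abundant transcript. Most of these had little room to differ, so the count says little about robustness. A pseudocount cannot change a sign, and the floor of 1 RPKM in the higher group left every member's ratio as it was. Smo, Boc and Gas1 have a single listed transcript, so taking the most abundant 1 changes nothing for them. The 6 ratios of knock-in-labelled to heterozygote values, which have no test, kept their sign and moved by at most 0.03 when rescaled by the mutant values. With the most abundant transcript only, the ratio of Ptch1 in knock-in-labelled against mutant-labelled retinas was -0.61 in place of -0.98, and that of Gli2 turned from -0.031 to 0.046; the sum there includes transcripts with wide errors. With transcripts of at least 1 RPKM in both groups, q for Ptch1 was 0.162. Depth is unknown, so how far it limits the low values of Boc cannot be given.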
